A study of Homo sapiens with 4 samples.

Results

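The nuclear genes for mitochondrial ribosomal proteins were compared between a Raji cell clone in which DLEU1 had been downregulated and a wild-type Raji clone. Members were all genes of the array whose platform annotation gives 1 symbol made of MRPL (large subunit) or MRPS (small subunit) and a number. This gave 140 probe sets for 75 genes, out of 19775 genes with 1 symbol, and the brightest probe set stood for each gene whatever its difference. Raji is an Epstein-Barr virus-positive Burkitt lymphoma line. The DLEU1 downregulated group (2 arrays) came from 1 clone treated with TALENs, designer nucleases directed at the long non-coding RNA gene DLEU1. The control group (2 arrays) came from 1 wild-type clone, and both clones were kept in RPMI medium with serum. The labels do not say whether the duplicates were separate cultures, so the p-values cover the spread of 2 arrays per clone, possibly technical only, and differences between any 2 Raji clones cannot be told apart from effects of DLEU1.

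Mitochondria translate a small set of messages, all for inner membrane subunits of the respiratory chain and ATP synthase, on ribosomes of their own. The ribosomal RNAs are encoded in the mitochondrial genome, whereas every protein of both subunits is encoded in the nucleus, made in the cytosol and imported. Many of these proteins descend from bacterial ribosomal proteins and others have no bacterial counterpart. In B cells, mitochondrial translation is needed for germinal centre responses, and Burkitt lymphoma cells have high MYC, which is known to drive genes of mitochondrial biogenesis.

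The promoters of the 3 members that were highest and the 3 that were lowest in the DLEU1 downregulated clone are shown first, because the results turn on these genes. They are the 150 bases before the RefSeq start on GRCh38.p14, on the gene's strand. Capitals mark letters of motifs known in promoters of mitochondrial genes, namely ETS (CCGGAAG) and the palindromic motif of NRF1, each searched on both strands with YY1 (AANATGGCG) and the E-box (CACGTG).
MRPS26 promoter (chr20:3045902-3046051, plus strand): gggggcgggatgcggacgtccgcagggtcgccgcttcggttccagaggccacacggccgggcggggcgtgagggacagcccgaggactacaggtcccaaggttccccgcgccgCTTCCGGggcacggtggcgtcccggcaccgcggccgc
MRPS17 promoter (chr7:55951727-55951876, plus strand): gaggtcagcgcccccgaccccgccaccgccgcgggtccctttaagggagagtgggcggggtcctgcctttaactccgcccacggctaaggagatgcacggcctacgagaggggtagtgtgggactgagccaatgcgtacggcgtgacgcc
MRPL38 promoter (chr17:75904885-75905034, minus strand): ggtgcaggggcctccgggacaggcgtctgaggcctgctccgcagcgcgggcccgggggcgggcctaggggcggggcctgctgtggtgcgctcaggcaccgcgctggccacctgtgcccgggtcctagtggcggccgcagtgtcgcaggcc
MRPL1 promoter (chr4:77862680-77862829, plus strand): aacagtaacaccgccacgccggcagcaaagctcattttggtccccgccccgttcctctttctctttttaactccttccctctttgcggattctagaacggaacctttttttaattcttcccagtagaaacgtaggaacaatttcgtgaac
MRPL17 promoter (chr11:6683341-6683490, minus strand): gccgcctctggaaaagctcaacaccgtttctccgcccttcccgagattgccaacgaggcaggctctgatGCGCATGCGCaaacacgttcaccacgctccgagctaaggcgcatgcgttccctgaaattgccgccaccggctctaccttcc
MRPS31 promoter (chr13:40771191-40771340, minus strand): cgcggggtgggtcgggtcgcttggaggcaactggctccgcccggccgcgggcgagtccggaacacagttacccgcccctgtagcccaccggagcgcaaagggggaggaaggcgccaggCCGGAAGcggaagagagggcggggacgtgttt

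The ETS letters stood 37 bases before the start of MRPS26, on the minus strand, and 32 bases before the start of MRPS31, on the plus strand, so a higher and a lower member both held them. MRPL1 and MRPL38 held the YY1 letters just after the start, at bases 17 and 7, outside the stretch shown, and MRPL38 held ETS letters 208 bases before it. Promoters of 67 members were in the table, each 300 bases long with 50 bases after the start, and no member promoter had 2 different motifs that overlapped. ETS letters were in 28 of the 67 (41.8%), against 18.3% of 10714 promoters of tested genes and 10.7% of all 27305. YY1 letters were in 17 of the 67 (25.4%), against 6.59% and 3.37%. NRF1 letters were in 8 (11.9%), against 11.3% and 6.28%, and the E-box was in 6 (8.96%), against 9.92% and 7.43%. By direction, ETS letters were in 7 of 18 promoters of members called higher and in 12 of 23 of those called lower, and YY1 letters in 2 of 18 and 7 of 23. These counts describe letters in a window and show neither binding nor its absence.

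The deposited values lacked a common scale. The 2% trimmed mean intensity was 172 and 197 on the DLEU1 downregulated arrays, against 163 and 131 on the control arrays, so the arrays were quantile normalized before the test. Values below are normalized intensities, and differences are log2 values of the DLEU1 downregulated minus the control clone with 16 added to each intensity. The median difference over all 13292 genes tested was -0.01 after normalization and 0.18 as deposited. Of 6 B-cell markers, 5 passed the test as lower after normalization, against 20.6% of all genes. As deposited limma called 0 of the 6, and PAX5, CD79A and MS4A1 had differences above 0 (0.14, 0.15 and 0.23). The list's summed intensity was 14126 and 14211 in the DLEU1 downregulated clone, against 17257 and 17263 in the control clone. Its members read 553 to 7165 in the DLEU1 downregulated clone and 1016 to 7722 in the control clone, whereas T-cell and myeloid markers stayed at 26.3 or below and fibroblast markers at 151 or below on every array. The part of these marker differences in the results below was not tested. The samples were clones of the Raji cell line. Bulk RNA cannot tell a marker difference in every cell of a clone from a difference in only some of its cells.

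DLEU1 read 499 and 507 on the DLEU1 downregulated arrays, against 1385 and 1286 on the control arrays. The groups did not overlap, and the log2 difference was -1.38 ± 0.07 (SE), with a limma adjusted p = 2.9e-06. By an exact permutation test, two-sided, p was 0.333, which is the smallest possible with 6 assignments of the arrays. The labels do not place the TALEN cut, and its position relative to the probe set was not tested.

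After quantile normalization the mitochondrial ribosomal protein genes were split between higher and lower, whereas as deposited and with median centring most of those called were higher. All 75 passed the filter on dim probe sets, and 20 were higher and 26 lower in the DLEU1 downregulated clone at an adjusted p under 0.05, while 29 did not pass. Over all genes tested 20.6% were higher and 20.6% lower. The members' median difference was -0.003, with 36 above and 39 below 0. As deposited, 16 members were higher and 1 lower, against 20.3% and 5.74% of all genes, and the median was 0.36. Those 16 and that 1 were called in the same direction after normalization, and limma called 0 members in opposite directions on the 2 scales. Of the 26 members called lower, 25 did not pass as deposited, and 15 had a difference above 0 as deposited, of up to 0.20. With the arrays brought to a common trimmed mean, 21 members were higher and 20 lower. With median centring 44 were higher and 3 lower, with a median of 0.41. The array medians aligned by that centring were dim, at 18.4 to 22.6 as deposited and near the 16 added. The members' own medians were 1116 to 1584 as deposited. The arrays of the clones did not overlap for 64 members, 32 in each direction, against 69.9% of all genes. At 2-fold or more, limma called 0 members higher and 1 lower, against 2.66% and 3.76% of all genes.

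**Figure D1:**
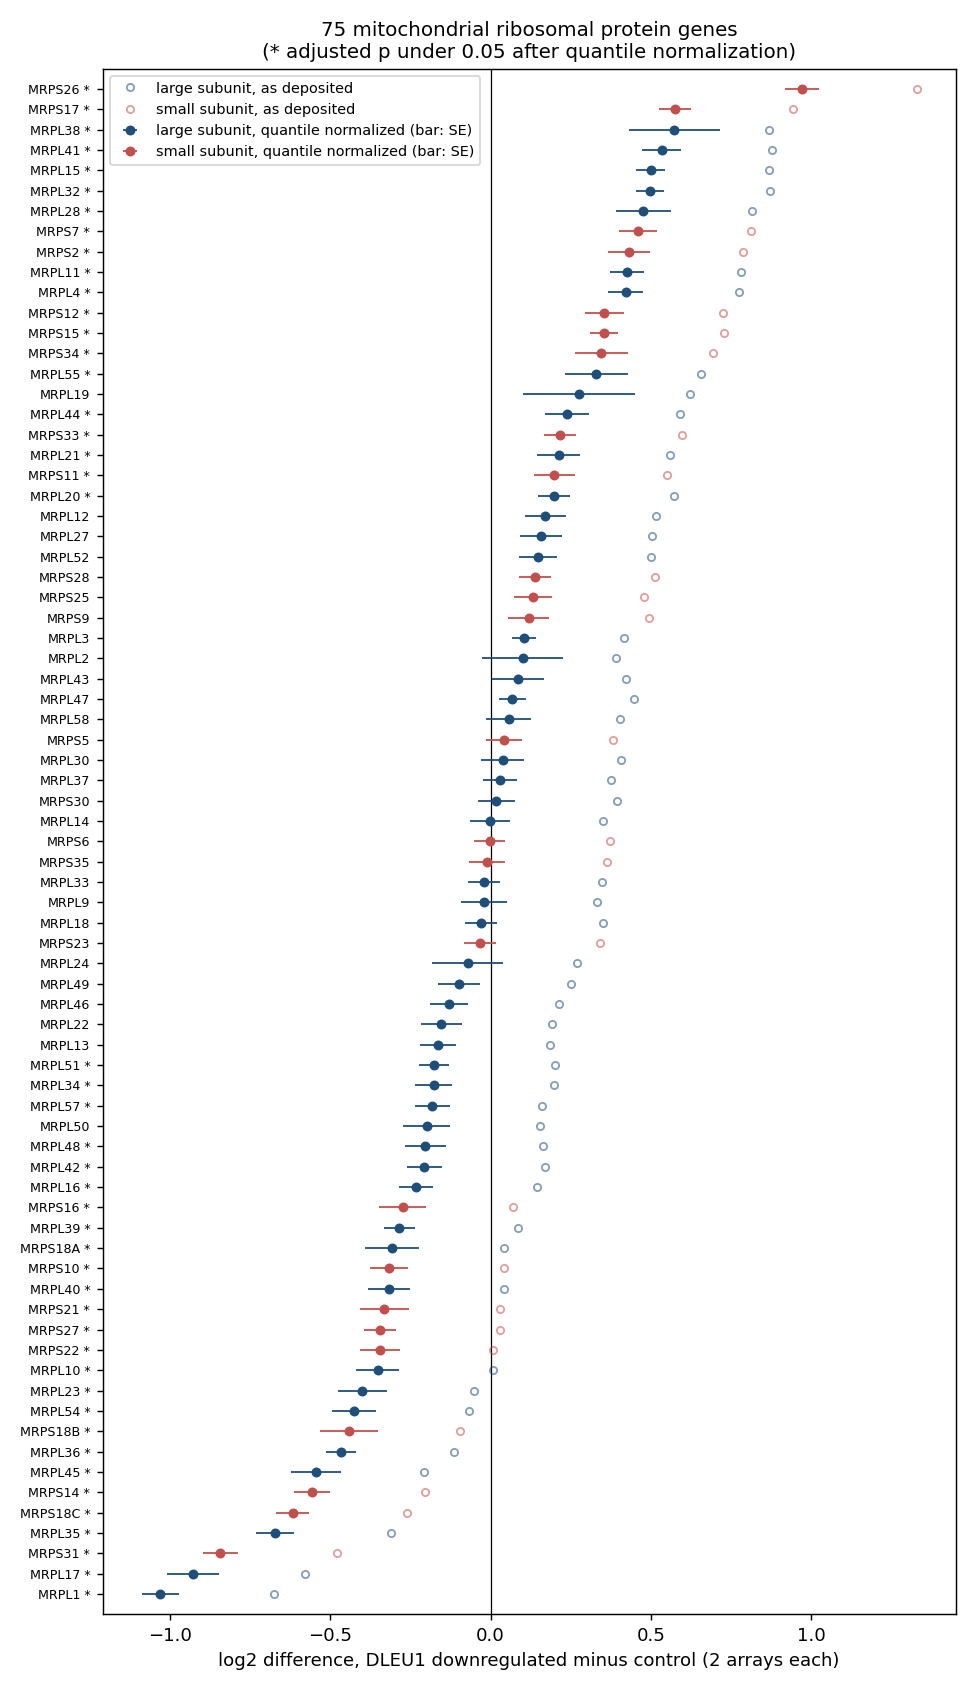
Log2 difference of the 75 members, DLEU1 downregulated minus control, with SE bars after quantile normalization (filled) and as deposited (open), for large and small subunit genes with 2 arrays per clone. Normalized differences run from -1.03 for MRPL1 to 0.97 for MRPS26, and the open points lie to the right, so that 15 of the 26 members called lower sit above 0 as deposited.

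The members were abundant transcripts, and the share called is to be read with that in mind. Their normalized intensity ran from 235 to 6272 in the DLEU1 downregulated clone (median 1346) and from 184 to 5833 in the control clone (median 1395), and the median member was at the 92.1 percentile of genes by level. Among 3100 other genes with a level between 554 and 3262, which is the members' 10th to 90th percentile, 34.0% were higher and 32.0% lower. In that range the median difference was 0.01 after normalization and 0.37 as deposited, close to the members' own medians. The members' differences had an SD of 0.37, against 0.52 for these other genes. A called difference of at least 1.5-fold was met by 6 members (8.0%) and by 21.8% of these other genes.

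Of the members of the large subunit with a bacterial counterpart, 7 of 29 were higher and 8 lower (6 and 1 as deposited). These shares, 24.1% and 27.6%, stood against 20.6% each way over all genes and 34.0% and 32.0% over other genes of like level. MRPL15 read 3829 and 3947 in the DLEU1 downregulated clone, against 2802 and 2691 in the control clone. The log2 difference of MRPL15 was 0.50 ± 0.05 (SE, adjusted p = 6.02e-05), and it was higher as deposited too. MRPL32, which the inner membrane m-AAA protease trims before it enters the ribosome, read 3915 and 3827, against 2717 and 2752 in the control clone, a difference of 0.50 (adjusted p = 4.57e-05). MRPL28 read 620 and 611, against 410 and 468, and MRPL11, at the base of the stalk that receives translation factors, read 1779 and 1769, against 1314 and 1320. MRPL4, which lines the exit tunnel, was higher by 0.42 and its other 2 probe sets were higher as well, by 0.45 and 0.31. For these 5 genes each array of the DLEU1 downregulated clone was above both control arrays. This held for all 20 members called higher and was a condition for naming them. Over all genes 69.9% did not overlap. MRPL20 and MRPL21 were higher by 0.20 and 0.21, and the call of MRPL21 was not made as deposited (adjusted p = 0.056).

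MRPL1, the protein of the mobile stalk near the exit site for transfer RNA, had the lowest difference of the 75. It read 779 and 764 in the DLEU1 downregulated clone, against 1568 and 1617 in the control clone, a mean of 771 ± 10.7 against 1592 ± 35.1 (SD, n = 2 arrays each), 2.06-fold lower. Its log2 difference was -1.03 ± 0.06 (SE, limma adjusted p = 5.5e-06), and -0.68 as deposited (adjusted p = 0.0215). It was called lower under all 21 alternative settings. MRPL17 read 424 and 419, against 869 and 768 in the control clone, a difference of -0.93 (adjusted p = 4.76e-05) that did not pass as deposited (-0.58, adjusted p = 0.0793). MRPL35, in a probe set prone to cross-hybridisation, read 1131 and 1212, against 1842 and 1907, a difference of -0.67. Its second probe set gave -0.31 (0.00 as deposited), and its dim other one gave 0.47, which did not pass but was called higher as deposited (0.68, adjusted p = 0.036). MRPL36 read 4035 and 3759, against 5386 on both control arrays. For each of these 4 genes the arrays of the 2 clones did not overlap, as for all 26 members called lower. That was a condition for naming them.

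MRPL23, which sits at the mouth of the exit tunnel, and MRPL10, which anchors the stalk, stood at -0.40 and -0.35 and passed as lower, while as deposited MRPL23 stood at -0.05 and MRPL10 at 0.01, neither of which passed. MRPL16 and MRPL34 were lower as well (-0.23 and -0.18), but had differences of 0.14 and 0.20 as deposited. MRPL12, the stalk protein that contacts translation factors, had a difference of 0.17 and did not pass (adjusted p = 0.0718). The brightest member, MRPL3, which reaches toward the catalytic centre, read 6306 and 6237, against 5862 and 5804 in the control clone, and did not pass either (0.10, adjusted p = 0.0584). The dimmest, MRPL2, overlapped between the clones, with 243 and 226 against 193 and 245. A second MRPL2 probe set of like level read 223 and 249, against 178 and 174 in the control clone, and was called higher (0.39, adjusted p = 0.023), also as deposited.

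Large subunit proteins without a counterpart in the bacterial large subunit include MRPS18A and MRPS30 despite their symbols. Of these 21 members, 4 were higher and 9 lower (2 and 0 as deposited). The shares, 19.0% and 42.9%, stood against 20.6% each way over all genes and 34.0% and 32.0% over other genes of like level. MRPL38, a protein of the central protuberance, read 329 and 242 in the DLEU1 downregulated clone, against 188 and 181 in the control clone. Its difference was 0.57 ± 0.14 (SE, adjusted p = 0.0132), with the largest spread between arrays of any member called. MRPL41 read 1538 and 1492, against 1006 and 1078, a difference of 0.53, and the next of its 5 probe sets gave 0.61, while the 3 dim others gave 0.24, 0.10 and 0.09 and did not pass. MRPL55 and MRPL44, whose protein resembles ribonuclease III, were higher by 0.33 and 0.24, and neither passed as deposited (adjusted p = 0.0508 and 0.0685). MRPL45, through which the ribosome attaches to the inner membrane, read 416 and 412, against 636 and 588 in the control clone, a difference of -0.55. MRPL54 was lower (-0.43) and negative as deposited too (-0.07, not passed). The others called lower were MRPL40, MRPS18A, MRPL39, MRPL42, MRPL48, MRPL57 and MRPL51, at -0.32 to -0.18, all of which had differences above 0 as deposited, of 0.04 to 0.20. MRPL51, in a probe set prone to cross-hybridisation, was called higher after median centring of the arrays.

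**Figure D2:**
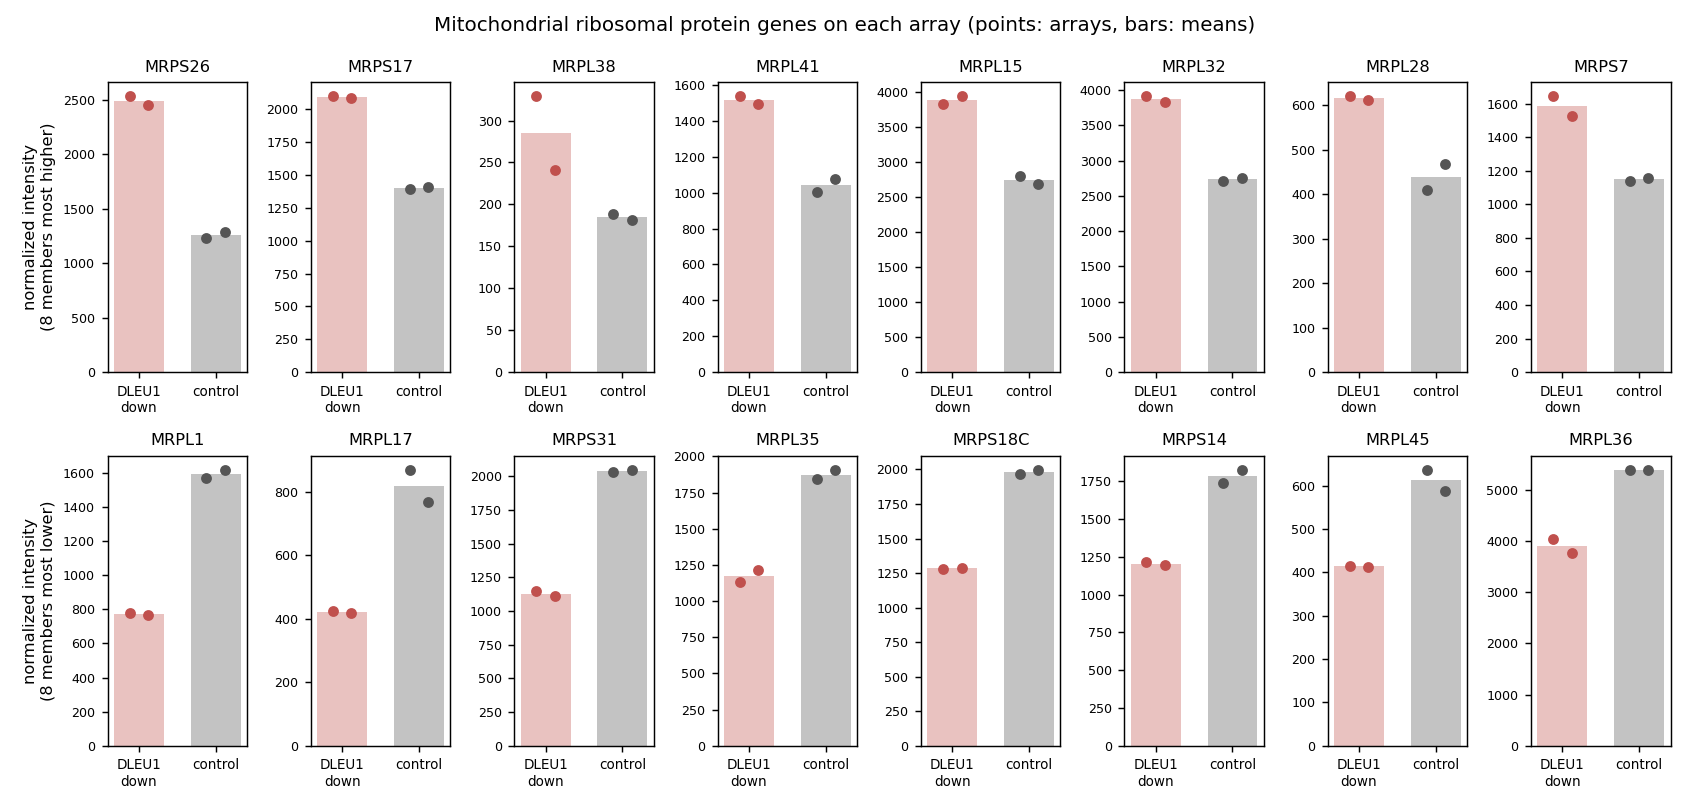
Normalized intensity on each array (points) and the mean (bars) of the 8 members most higher and the 8 most lower, with the 2 DLEU1 downregulated arrays left of the 2 control arrays in each panel. The 2 clones do not overlap in any panel, which holds for all 46 members called and for 69.9% of all genes. The 2 DLEU1 downregulated arrays of MRPL38 read 329 and 242.

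In the small subunit, proteins with a bacterial counterpart were split evenly, with 6 of 16 higher and 6 lower after normalization. As deposited 5 were higher and 0 lower. Each share after normalization was 37.5%, against 20.6% over all genes, and 34.0% higher and 32.0% lower over other genes of like level. MRPS17 read 2102 and 2091 in the DLEU1 downregulated clone, against 1392 and 1412 in the control clone, a difference of 0.58 ± 0.05 (SE, adjusted p = 4.84e-05). MRPS7, a protein of the subunit's head, read 1647 and 1531, against 1142 and 1158, and MRPS2 read 989 and 1030, against 763 and 725. MRPS12, at the decoding centre, was higher by 0.36 and MRPS15 by 0.35. Each has 4 probe sets, of which a second was higher too, by 0.94 for MRPS12 and 0.45 for MRPS15. Their remaining probe sets are not given here. MRPS11 was higher by 0.20, with adjusted p = 0.0414 after normalization and 0.0725 as deposited. These 6 genes had no overlap between the clones, as had all 20 members called higher, against 69.9% of all genes without overlap.

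MRPS18C read 1281 and 1289 in the DLEU1 downregulated clone, against 1964 and 1997 in the control clone, a difference of -0.62 ± 0.05 (SE, adjusted p = 3.78e-05). It belongs to a family of 3 related genes. The MRPS18B and MRPS18C proteins sit in the small subunit and the MRPS18A protein in the large one. MRPS18B read 1039 and 996, against 1254 and 1537 in the control clone (-0.44, adjusted p = 0.00507). MRPS18A read 553 and 609, against 684 and 762 (-0.31, adjusted p = 0.0204). All 3 were thus lower after normalization, and as deposited none passed, with -0.26 for MRPS18C, -0.10 for MRPS18B and 0.04 for MRPS18A. Second probe sets of MRPS18A and MRPS18B were lower as well (-0.30 and -0.22). MRPS18C has 3 probe sets, of which only the brightest is given here.

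MRPS14 read 1214 and 1194 in the DLEU1 downregulated clone, against 1737 and 1825 in the control clone (-0.56, adjusted p = 9.65e-05), and did not pass as deposited (-0.20). MRPS10 and MRPS21 were lower (-0.32 and -0.33), with 0.04 and 0.03 as deposited. MRPS16 disagreed between its probe sets. The brighter read 1225 and 1093, against 1342 and 1467 in the control clone, a difference of -0.27, while the dimmer read 756 and 695, against 349 and 362, a difference of 1.00 (adjusted p = 2.86e-05). The mean of both gave 0.36, so no single direction can be given for MRPS16. MRPL42 likewise had 2 probe sets lower (-0.21 and -0.23) and another, dim one higher by 0.63, and as deposited its brightest stood at 0.17.

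Among small subunit proteins without a bacterial counterpart, 3 of 9 were higher and 3 lower (3 and 0 as deposited). Each share after normalization was 33.3%, against 20.6% over all genes, and 34.0% higher and 32.0% lower over other genes of like level. The highest difference of the 75 was in this group. MRPS26 read 2534 and 2448 in the DLEU1 downregulated clone, against 1233 and 1291 in the control clone, a mean of 2491 ± 60.8 against 1262 ± 40.6 (SD, n = 2 arrays each), 1.97-fold higher. Its log2 difference was 0.97 ± 0.05 (SE, limma adjusted p = 4.61e-06), and 1.33 as deposited (adjusted p = 5.77e-08). A second, dim probe set of MRPS26 was higher too, by 1.11. MRPS34 and MRPS33 were higher by 0.35 and 0.22. MRPS31, a protein of the head, read 1149 and 1108, against 2029 and 2047 in the control clone (-0.84, adjusted p = 9.05e-06), and a second probe set gave -0.77. As deposited MRPS31 stood at -0.48 and did not pass (adjusted p = 0.107). MRPS27, a pentatricopeptide repeat protein, and MRPS22 were both at -0.35, with 0.03 and 0.01 as deposited. MRPS22 was read from a probe set prone to cross-hybridisation. Without such probe sets 73 members had a tested value, and 24 of the lower calls were kept.

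Of the 46 members called, 24 had other probe sets that were tested, 41 in all. Of these 41, 15 were called in the same direction, 24 did not pass, and 2 were called in the other direction, in MRPS16 and MRPL42. The 29 members that did not pass had differences of -0.20 to 0.28 in their brightest probe sets. They had 23 other tested probe sets, of which those of MRPL2 (0.39), MRPS25 (0.69) and MRPS30 (0.53) were called higher and 1 of MRPS5 (-0.62) lower. MRPS25, MRPS30 and MRPS5 were named after their values were seen. The 3 closest to 0 were MRPL14, MRPS6 and MRPS35, at -0.001, -0.003 and -0.011, and they stood at 0.35 to 0.37 as deposited and passed as higher after median centring. MRPL14 read 1163 and 1105, against 1101 and 1169 in the control clone, so its arrays overlapped. The widest interval was that of MRPL19, whose SE of 0.17 came from control arrays of 617 and 384.

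Members were also read by chromosome, with no test between chromosomes, since each holds at most 8 of them. MRPS17, MRPL32 and MRPS33, the 3 members on chromosome 7, were all higher, and 43.5% of 632 other tested genes of that chromosome were higher against 9.34% lower. MRPS26 lies on chromosome 20, where 42.1% of 375 other genes were higher and 5.33% lower. Both members on chromosome 4, MRPL1 and MRPS18C, and both on chromosome 13, MRPS31 and MRPL57, were lower, although MRPL57 stood at 0.16 as deposited. Of 486 other genes of chromosome 4, 144 were lower and 78 higher, and of 239 of chromosome 13, 70 were lower and 35 higher. On chromosome 6, MRPS18B, MRPS18A and MRPS10 of 6 members were lower, with MRPS18A and MRPS10 above 0 as deposited. Of 729 other genes there, 24.6% were lower and 17.1% higher. Both members on chromosome 16 were higher, where 26.1% of 598 other genes were higher and 13.7% lower. On chromosome 11, 4 of 7 members were lower and 2 higher, where 24.5% of 750 other genes were lower and 16% higher. Of 3 members on chromosome 8, MRPL15 was higher, while MRPL13 (-0.16) and MRPS28 (0.14) did not pass. Of 472 other genes there, 28.8% were lower and 16.3% higher. MRPL40, the 1 member on chromosome 22, was lower (0.04 as deposited). Of 324 other genes there, 19.4% were higher and 15.7% lower, both under the 20.6% over all genes.

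The genes next to each member were read in the same way, taking the 10 nearest tested genes on each side in RefSeq order. Around MRPS26, 10 of the 20 neighbours were higher and 0 lower by limma, with a median difference of 0.39. Around MRPL17, 10 of 20 were lower and 1 higher, with a median of -0.66. Around MRPS18C, 9 of 20 were lower and 2 higher (median -0.26), and around MRPL1 4 were lower and 6 higher (median -0.29). Over all genes tested 20.6% were higher and 20.6% lower. For other tested genes the neighbours' median was -0.31 at the 5th percentile and 0.31 at the 95th. For 69 of the 75 members, MRPS18C and MRPL1 among them, it lay between these. For MRPL35, MRPS14 and MRPL45 the neighbours' medians were -0.01, 0.02 and 0.05, and for MRPL41, MRPL15 and MRPS7 they were -0.02, -0.05 and -0.02. MRPL36 and MRPL54 were lower among neighbours whose medians were 0.34 and 0.38. Over the 75 members, the difference and the neighbours' median had a Pearson correlation of 0.44 and a Spearman correlation of 0.35, which is across genes of the same 4 arrays, with neighbours shared by members that lie close together. The same correlations over 13204 other tested genes were 0.23 and 0.22. The copy number of these regions was not tested.

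**Figure D3:**
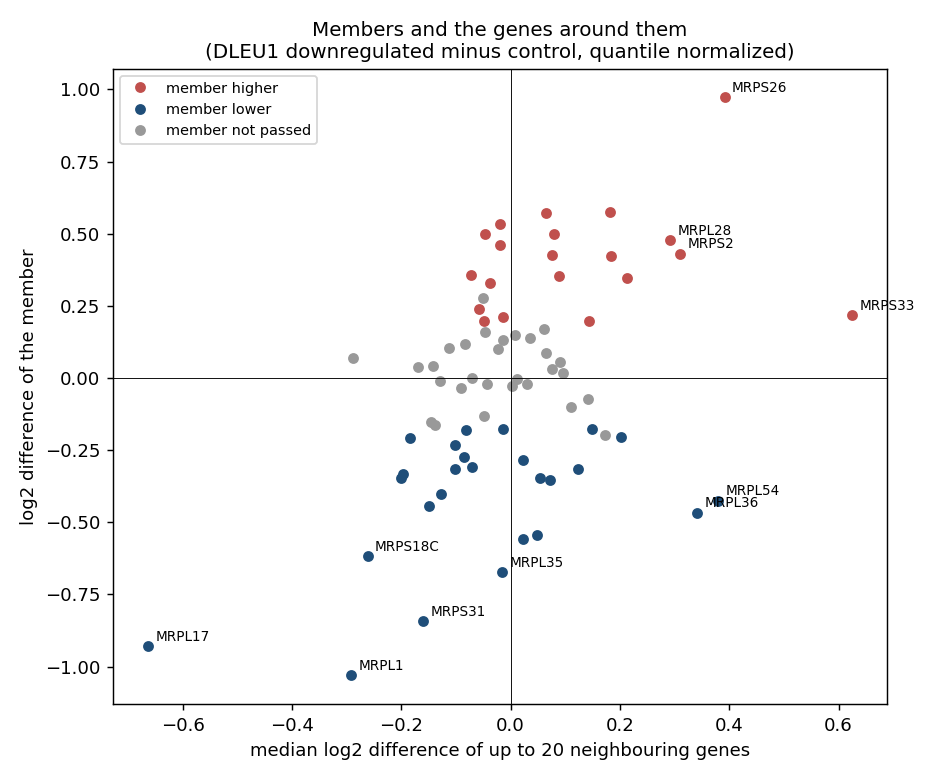
Log2 difference of each member (vertical axis) against the median log2 difference of its up to 20 neighbouring genes (horizontal axis), DLEU1 downregulated minus control after quantile normalization, coloured by the member's call. MRPS26 (0.97) and MRPL17 (-0.93) lie with neighbourhoods at 0.39 and -0.66, while MRPL36 and MRPL54 are lower among higher neighbours.

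Other parts of mitochondrial gene expression were read from lists chosen by function. Of 28 tested genes for mitoribosome assembly, 12 were higher and 4 lower (42.9% and 14.3%), with a median of 0.16. Over all genes 20.6% were called each way, with a median of -0.01. Among the 3100 other genes in the members' level range (554 to 3262), 34.0% were higher and 32.0% lower. The assembly list's median control level, 639, lay in that range. MALSU1, which docks on the MRPL14 protein during large subunit assembly, read 4707 and 4902 in the DLEU1 downregulated clone, against 2721 and 2840 in the control clone (0.79, adjusted p = 6.26e-06). The ribosomal RNA methyltransferase MRM2 was higher by 0.66, the pseudouridine synthase TRUB2 by 0.74 and the assembly factor MTERF3 by 0.49. MALSU1 and MRM2 lie on chromosome 7, where 43.5% of tested genes other than members were higher. Limma called 11 of the 28 higher and 0 lower as deposited.

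Of 24 genes for maintenance of mitochondrial DNA and RNA, 13 were higher and 2 lower, with a median of 0.33 (13 and 0 as deposited). These shares, 54.2% and 8.33%, stood against 20.6% each way over all genes and 34.0% and 32.0% at the members' level. SSBP1, the single-strand binding protein of the mitochondrial genome, read 5983 and 5786, against 3866 and 3643 in the control clone. FASTKD3, of mitochondrial RNA handling, was higher by 0.51 and the ribonuclease P subunit HSD17B10 by 0.30. FASTK, needed for a mitochondrial messenger RNA, was higher by 0.53. Both SSBP1 and FASTK lie on chromosome 7. Of 25 protein import genes, 10 were higher and 2 lower, with a median of 0.14 (11 and 0 as deposited). These shares were 40% and 8%, against the same 20.6% each way over all genes. GRPEL1, a cofactor of the mitochondrial import motor, read 1944 and 1880, against 1001 and 1122. The import pore TOMM40 was higher by 0.75 and the co-chaperone TOMM34 by 0.58. TOMM34 lies on chromosome 20, where 42.1% of tested genes other than members were higher. TIMM9, a chaperone of the intermembrane space, was lower (-0.73) and did not pass as deposited (-0.38).

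Translation factors were mixed, with 6 of 19 higher and 4 lower (median -0.03, and 6 and 0 as deposited). These shares were 31.6% and 21.1%, against 20.6% of all genes each way, and 34.0% and 32.0% at the members' level. MTFMT, which formylates the initiator transfer RNA, read 747 and 752, against 321 and 302 in the control clone (1.22, adjusted p = 8.68e-06), and the elongation factor TUFM was higher by 0.45. The recycling factor MRRF and the release factor MTRF1L stood at -0.66 and -0.55, and neither passed as deposited. Of 15 mitochondrial aminoacyl-tRNA synthetases, 3 were higher and 1 lower (3 and 0 as deposited). These shares, 20% and 6.67%, were not above the 20.6% of all genes called each way. RARS2, for arginine, was higher by 0.96, LARS2, for leucine, by 0.59 and MARS2, for methionine, by 0.39, while HARS2, for histidine, was lower (-0.38), did not pass as deposited (-0.04) and stood just above 0 after median centring. Of 4 mitoribosome proteins with other names, CHCHD1 and PTCD3 were lower (-0.32 and -0.27, with 0.05 and 0.07 as deposited) and DAP3 and GADD45GIP1 did not pass (0.04 and 0.24).

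**Figure D4:**
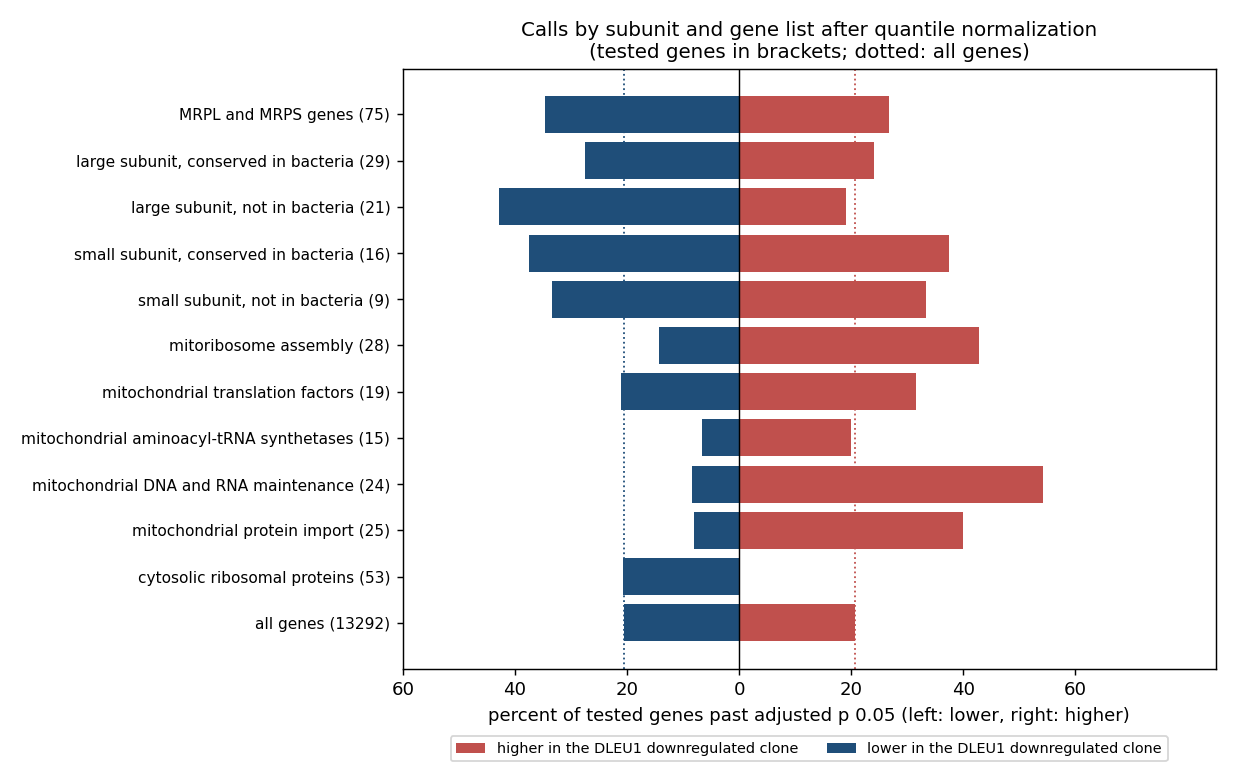
Percent of tested genes called higher (right) and lower (left) in the DLEU1 downregulated clone after quantile normalization, by subunit and by list, with the number tested in brackets and the share over all 13292 genes dotted. The 75 members have 26.7% higher and 34.7% lower (16 and 1 members as deposited), and the mitochondrial DNA and RNA list has 54.2% higher and 8.33% lower.

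Among 12 regulators of mitochondrial biogenesis, 3 were higher and 4 lower (25.0% and 33.3%), against 20.6% of all genes each way. The coactivator PPARGC1B read 1345 and 1323 in the DLEU1 downregulated clone, against 714 and 716 in the control clone (0.89, adjusted p = 1.21e-05), and its relative PPRC1 was higher by 0.42. SP1, a general promoter factor, was at -0.57 and did not pass as deposited (-0.21). MYC was at -0.29 (adjusted p = 0.0159) and at 0.03 as deposited, where it did not pass. Of the factors that bind the letters counted above, YY1 was at -0.27 (adjusted p = 0.025) and at 0.10 as deposited, where it did not pass. NRF1 and GABPA, which binds ETS letters, did not pass (-0.07 and 0.02). YY1, NRF1 and GABPA were named after their values were seen. Of 79 cytosolic ribosomal protein genes listed, 53 were found among the genes with 1 symbol. Of these 53, limma called 0 higher and 11 lower, with a median of -0.04, and 0 either way as deposited. The 11 are 20.8% of the list, against 20.6% of all genes lower. At an unadjusted p under 0.05, 15 of the 53 passed, against 6591 of the 13292 genes tested. RPS9 (-0.26), RPL27A (-0.45), RPL35 (-0.16) and RPL24 (-0.14) had the smallest p-values, and as deposited RPS9 stood at 0.02 and the other 3 below 0, with RPL35 just above 0 after median centring. The RPL27A probe set was dim for this list, with 520 and 483 in the DLEU1 downregulated clone, against 652 and 733 in the control clone. The list's median control level was 13358.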

How the data were processed

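Total RNA of 4 Raji samples was labelled with biotin and hybridised, per the labels, to HG-U133 Plus 2.0 arrays of Affymetrix. The authors deposited 1 table of linear signal intensity, made with MAS5 per the submitters' processing notes, for which a version, a target and detection calls are not given in the sources used here. Depth has no meaning for arrays, and 2 arrays per group limit the precision. The 62 control probe sets were removed, arrays were quantile normalized and turned into log2(intensity + 16), and 21845 probe sets below the 40th percentile of mean log2 value were not tested. The fit used limma 3.58.1 in R 4.3.3 (lmFit, eBayes with an intensity trend, group as the only term), with Benjamini-Hochberg adjustment over the 32768 probe sets tested and a threshold of 0.05. Prior degrees of freedom were 6.75 here, and infinite as deposited. Symbols came from the platform annotation (2016) and were updated by gene identifier through RefSeq of GRCh38.p14 (41037 of 41091 matched), which also gave gene order and promoters. For genes with several starts the first listed was used. Members and lists were chosen with earlier results of these data known. Named members were up to 16 higher and 16 lower by size of difference, among those called whose arrays did not overlap between the clones. They also included the 3 closest to 0, the brightest, the dimmest, the MRPS18 genes and those with opposed probe sets. In each other list up to 4 genes were named by p. Others are named beside their group, after their values were seen. Marker lists are given by ranges. Alternatives were other scalings, pseudocounts, filters, variance models, a replicate block, leaving out each array, other choices of probe set, other thresholds and leaving out 5 chromosomes. The fit was tested on simulated data.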

Additional observations from a re-analysis of the deposited data

Results flagged for a closer look

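A probe set outside the membership rule, because it carries both the symbols URGCP-MRPS24 and MRPS24, had a signal above the control clone. It read 4929 and 5818 in the DLEU1 downregulated clone, against 3741 and 4031 in the control clone, a log2 difference of 0.46 ± 0.07 (SE, limma adjusted p = 0.00133), and it was called higher as deposited too. It cannot be assigned to MRPS24 alone.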

How the results depend on the processing

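Scaling was the choice that moved most results. As deposited, 762 of all genes and 1 member were lower, the members' median was 0.36, and 0 genes of the 6 mitochondrial lists were lower (15 after quantile normalization, limma). Differences below 0 after normalization stood as deposited at 0.0070 for MRPL10, 0.0071 for MRPS22, 0.029 for MRPS27, 0.031 for MRPS21, 0.025 for MYC, 0.043 for MRPL40, 0.042 for MRPS18A, 0.047 for CHCHD1, 0.071 for MRPS16, 0.073 for PTCD3, 0.021 for RPS9, 0.14 for PAX5, 0.17 for MRPL42, 0.35 for MRPL14, 0.37 for MRPS6 and 0.36 for MRPS35, of which none passed. With median centring, 4876 of all genes were higher and 1119 lower, 44 members higher and 3 lower (median 0.41), and 77 and 1 genes of the mitochondrial lists. There MRPL10 and MRPS22 stood at 0.051, MRPS27 at 0.073, MRPS21 at 0.075, MYC at 0.069, RPS9 at 0.065, MRPL40 at 0.087, MRPS18A at 0.086, CHCHD1 at 0.091, MRPS16 and PTCD3 at 0.12, PAX5 at 0.19, MRPL42 at 0.21, HARS2 at 0.0028, RPL35 at 0.00077 and CD79B at 0.0011, and MRPL14 (0.39), MRPS6 (0.42) and MRPS35 (0.41) passed. With a common trimmed mean MRPL14, MRPS6 and MRPS35 stood at 0.026, 0.046 and 0.039. Averaging each gene's probe sets gave 0.36 for MRPS16 (adjusted p = 0.00498) and 0.063 for MRPL42. The cause of these shifts was not tested.

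Without an intensity trend 1629 and 1701 of all genes, 9 and 9 members and 19 and 5 genes of the mitochondrial lists were higher and lower. At an adjusted p under 0.01, 13 members were higher and 9 list genes lower. At 1.5-fold or more, 1299 and 1378 of all genes, 1 and 5 members and 12 and 2 list genes were called. Without chromosomes 6, 7, 8, 11 and 20, 13 members were higher, fewer members being tested. Leaving out each array gave 1820 to 2600 genes higher and 1931 to 2430 lower, 14 to 18 members higher and 19 to 23 lower, a members' median of -0.02 to 0.03, and 33 to 38 list genes higher and 8 to 15 lower. The count of genes higher was 1820 without DLEU1 downregulated array 1, and the list genes lower were 8 without DLEU1 downregulated array 2 and 9 without control array 2. In these fits MRPL14 ranged from -0.043 to 0.043, MRPS6 from -0.025 to 0.018, MRPS35 from -0.066 to 0.045, MRPL2 from -0.063 to 0.26, and DAP3 from -0.0057 to 0.090. Same-numbered arrays did not deviate together after quantile normalization (correlation -0.014). With 2 arrays per clone this rests on 1 contrast in each, so it cannot settle whether the numbers pair the arrays. With the replicate number as a block, 2746 genes were higher and 2724 lower, 20 members higher and 25 lower, and DLEU1 stood at -1.38. DLEU1 was called lower under all 21 alternatives, as was MRPL1. No detection calls were used here, so dim probe sets limit what can be said of MRPL2 and of dim second probe sets.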

Other observations

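Probe sets with several symbols named 2 other mitochondrial ribosomal genes. The one shared by MRPL53 and CCDC142 read 969 and 1051 in the DLEU1 downregulated clone, against 1476 and 1696 in the control clone (log2 difference -0.64, limma adjusted p = 2.87e-04), and did not pass as deposited (-0.29). The one shared by MRPL51 and SPTLC1 did not pass (-0.02).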
